A study of Homo sapiens with 6 samples.

Results

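Aminoacyl-tRNA synthetases join each amino acid to its tRNA, the step that makes the substrates of the ribosome. Most human cells hold separate sets of these enzymes: one works in the cytosol, and another is encoded in the nucleus, made in the cytosol and imported into mitochondria to charge the tRNAs that translate the mitochondrial genome. Several cytosolic enzymes sit together in the multi-synthetase complex, held by the scaffold proteins AIMP1, AIMP2 and EEF1E1, and the genes of many cytosolic enzymes are commonly described as targets of ATF4, the transcription factor of the amino acid response.

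The 36 genes described here are those of 16362 in the deposited count table whose symbol is on a list of synthetases, 20 cytosolic and 16 mitochondrial, the latter being the symbols that end in 2. The division by symbol is not strict, since GARS and KARS each encode both a cytosolic and a mitochondrial enzyme and are counted with the cytosolic genes. The RNA came from breast cancer cells labelled as the established human line MDA-MB-231, in 3 control libraries without any agent and 3 libraries after 24 h with CTI-2. The labels give this compound by code name and without a dose. Libraries were made with a cDNA-PCR kit and read by nanopore, and the comparison asks which transcripts differ with CTI-2. Separate cultures are nowhere mentioned, so p-values may measure only technical spread. In RNA from a whole culture, fewer cells of a type and less RNA per cell cannot be told apart.

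Library totals ran from 2208261 to 3929532 counts, so that 3 counts in a library were worth 0.763 to 1.36 CPM (a library's counts scaled to a total of 1000000). Control 2 had the largest total; without it 1610 genes passed the test instead of 791, and without any 1 of the others 400 to 552 did. Of the genes commonly described as high in MDA-MB-231, CD44 stood at 131 to 188 CPM and CAV1 at 57.0 to 83.4 CPM. VIM, which encodes vimentin, stood at only 14.5 to 18.9 CPM and AXL at 2.98 to 7.41 CPM. Of 6 such markers PLAUR and ANXA1 rose with CTI-2, by 0.50 and 0.35 on the log2 scale, and their part in the results was not tested. CDH1, the epithelial cadherin gene, had at most 1 count in any library. ESR1, ERBB3 and GATA3, like CDH1 commonly described as low in MDA-MB-231, had at most 2. CDKN2A, which is commonly described as deleted in MDA-MB-231, stood at 254 to 612 CPM in all 6 libraries, which goes against the label. The identity of the line was not tested, and the cells are therefore called the cells labelled MDA-MB-231.

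Of the 36 synthetase genes 35 had enough counts to be tested, and 4 of these had an adjusted p under 0.05 by the quasi-likelihood test of edgeR, which is 11.4% of them against 8.03% of all 9848 tested genes. All 4 were cytosolic. MARS, EPRS and QARS, which encode the methionyl, the glutamyl-prolyl and the glutaminyl enzymes of the multi-synthetase complex, fell by 0.45, 0.40 and 0.36 on the log2 scale, or 1.36-, 1.32- and 1.29-fold. FARSB, which encodes the beta subunit of the cytosolic phenylalanyl enzyme, rose 1.30-fold. In all tested genes 4.64% were called lower and 3.39% higher. None of the 15 tested mitochondrial synthetase genes passed in edgeR, and 2 of them, MARS2 and IARS2, had an unadjusted p under 0.05, against 23.9% of all tested genes. With DESeq2, and likewise with limma-voom, 0 of the mitochondrial genes were called. DESeq2 gave no adjusted p for NARS2, PARS2 and WARS2, so these could not be called there.

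**Figure D1:**
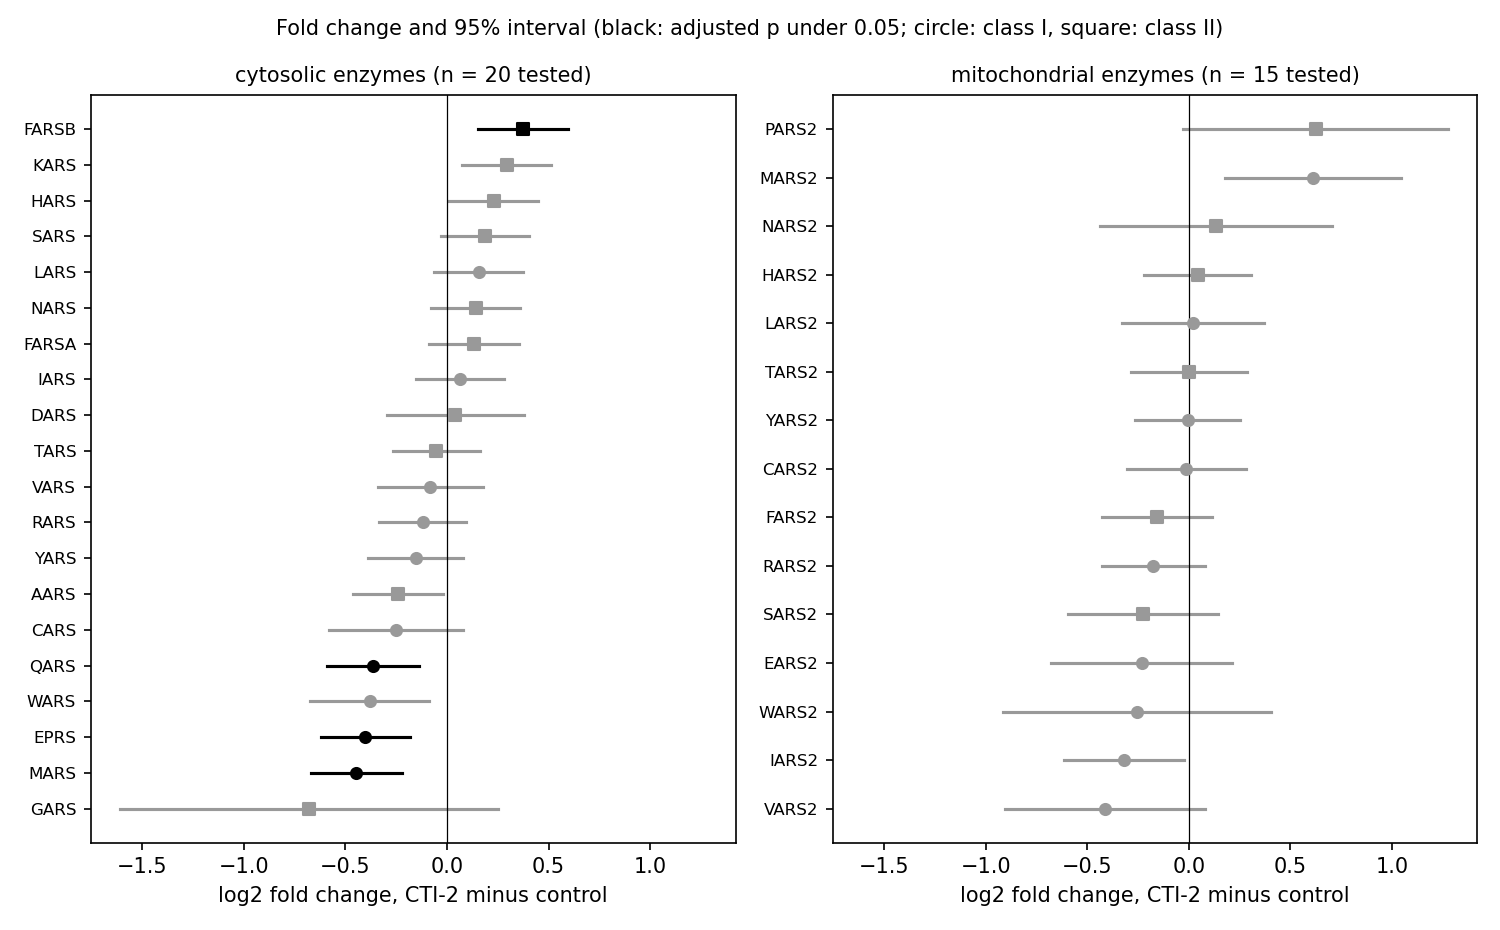
Log2 fold change (CTI-2 minus control, x axis) of the 20 cytosolic and 15 mitochondrial synthetase genes that were tested, with 95% intervals from edgeR's quasi-likelihood fit of 3 libraries per group. Black marks genes with an adjusted p under 0.05, circles class I enzymes and squares class II enzymes; MARS, EPRS and QARS lie left of 0 and FARSB right of it, all 4 among the cytosolic genes.

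MARS encodes the enzyme that charges both initiator and elongator methionine tRNA. Its CPM were 271, 237 and 315 in controls 1, 2 and 3 against 201, 176 and 204 with CTI-2, in the order of library numbers used throughout, and every CTI-2 library lay below every control. The means were 274 ± 38.8 and 193 ± 15.3 CPM (SD, n = 3 per group), with a log2 fold change of -0.45 (SE 0.11, edgeR adjusted p = 0.0095). The call was lost only when CTI-2 library 2, the lowest, was left out (log2 fold change -0.37, adjusted p = 0.121). MARS overlaps DDIT3 on the opposite strand by 982 bases, and DDIT3, which encodes the stress transcription factor CHOP, rose by 0.47 (edgeR adjusted p = 0.027). The sources do not tell if reads were counted by strand, so reads of MARS and DDIT3 cannot be told apart in the overlap and both values are uncertain.

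EPRS encodes a fused enzyme that charges tRNAs for both glutamate and proline. It stood at 196, 194 and 236 CPM in the controls against 153, 154 and 149 CPM with CTI-2, without overlap between the groups. From 209 ± 23.3 to 152 ± 2.32 CPM (SD, n = 3 per group), its log2 fold change was -0.40 (SE 0.11, edgeR adjusted p = 0.017). The gene lies on chromosome 1 from 219968601 to 220046658 on the minus strand (GENCODE 29, GRCh38) and its principal transcript has 32 exons and 5014 bases, the longest of the 35. EPRS missed the threshold when any 1 of the CTI-2 libraries was left out (adjusted p = 0.0711, 0.0892 and 0.0957 without libraries 1, 2 and 3), although its log2 fold change then stayed between -0.41 and -0.39.

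QARS encodes the only human glutaminyl-tRNA synthetase, and mitochondria charge their glutamine tRNA by another route. Its CPM were 202, 157 and 194 in the controls against 134, 127 and 153 with CTI-2. Control 2 (157 CPM) and CTI-2 library 3 (153 CPM) were close, and the groups did not overlap. The log2 fold change was -0.36 (SE 0.11, edgeR adjusted p = 0.038), from 184 ± 23.9 to 138 ± 13.4 CPM (SD, n = 3 per group). It was the least stable of the 3 falls: DESeq2 gave an adjusted p of 0.0973, the fit without a low-count filter 0.0612, and leaving out any library but control 2 gave 0.0517 to 0.235.

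FARSB and FARSA encode the beta and alpha subunits that together form the cytosolic phenylalanyl enzyme. FARSB stood at 174, 160 and 149 CPM in the controls against 195, 197 and 216 CPM with CTI-2, so all CTI-2 libraries were above all controls. The means were 161 ± 12.6 and 202 ± 11.5 CPM (SD, n = 3 per group), a rise of 0.37 on the log2 scale (SE 0.11, edgeR adjusted p = 0.028). FARSB lies on chromosome 2 from 222570536 to 222656337 on the minus strand (GENCODE 29, GRCh38). Its partner FARSA stood at 174 ± 22.1 and 183 ± 10.9 CPM (log2 fold change 0.13, edgeR adjusted p = 0.491). The log2 ratio of FARSB to FARSA counts within a library was -0.14, 0.11 and -0.28 in the controls and 0.08, 0.20 and 0.16 with CTI-2, and these ranges overlapped. The FARSB call was lost when any library other than control 2 was left out (adjusted p = 0.059 to 0.171) and after removal of each library's trend with GC content (0.0561).

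**Figure D2:**
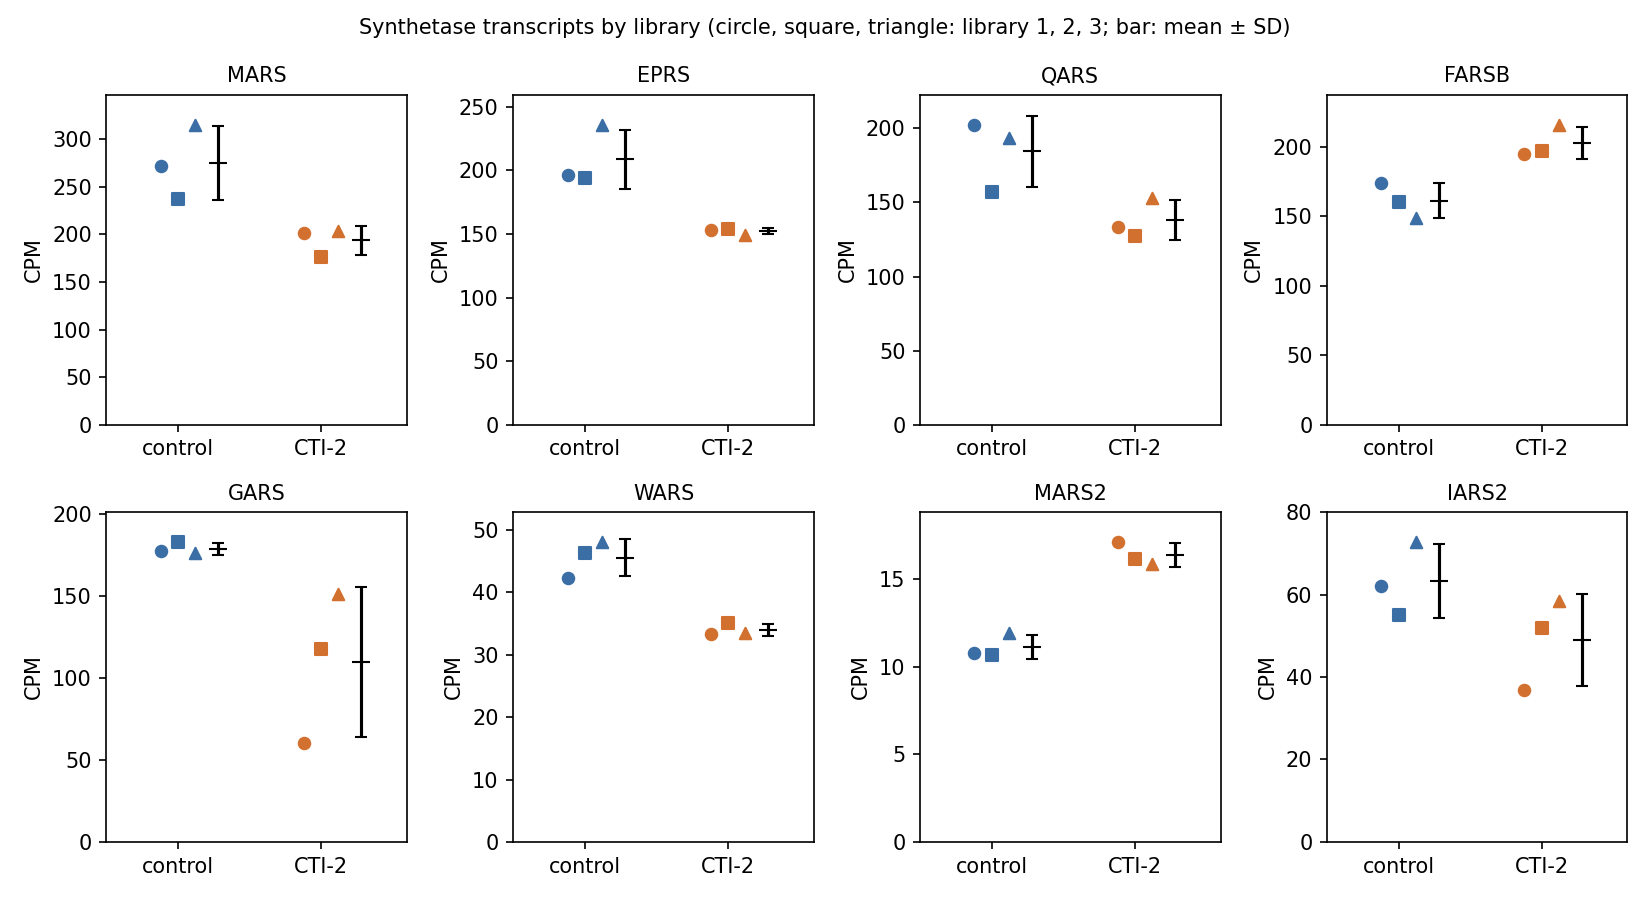
CPM (y axis, from 0) of MARS, EPRS, QARS, FARSB, GARS, WARS, MARS2 and IARS2 in each of the 3 control and 3 CTI-2 libraries, with circle, square and triangle for libraries 1, 2 and 3 and the bar for mean ± SD. For GARS the 3 controls sit between 176 and 183 CPM while the CTI-2 libraries spread from 60.3 to 151 CPM; IARS2 is the only one of the 8 genes shown whose groups overlap.

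GARS, which encodes the glycyl enzyme of both compartments, had the lowest log2 fold change of all the tested synthetases and did not pass. Its CPM were 177, 183 and 176 in the controls against 60.3, 117 and 151 with CTI-2. The controls were nearly level, all CTI-2 libraries were below them, and the CTI-2 libraries differed widely from each other (178.6 ± 3.68 and 109 ± 45.8 CPM, SD, n = 3 per group). Its log2 fold change of -0.68 therefore had a 95% interval from -1.61 to 0.25 (edgeR adjusted p = 0.336). CTI-2 library 1 carried 190 GARS counts, against 348 and 333 in CTI-2 libraries 2 and 3. Without that library the log2 fold change was -0.37 (adjusted p = 0.112), and without CTI-2 library 3 it was -0.97 (adjusted p = 0.027). GARS lies on chromosome 7 from 30594681 to 30634033 on the plus strand (GENCODE 29, GRCh38). It overlaps no other counted gene that has an Ensembl identifier, and the others were not placed.

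Among the other cytosolic genes, WARS, which encodes the interferon-inducible tryptophanyl enzyme, stood at 42.4, 46.3 and 48.1 CPM in the controls against 33.3, 35.1 and 33.5 CPM with CTI-2. The groups did not overlap, and the log2 fold change of -0.38 missed the threshold (edgeR adjusted p = 0.095). The alanyl enzyme gene AARS (-0.24), the tyrosyl YARS (-0.15), the arginyl RARS (-0.12) and the threonyl TARS (-0.05) were also lower in every CTI-2 library than in any control by CPM, with adjusted p from 0.169 to 0.815. The cysteinyl CARS (-0.25) and the valyl VARS (-0.08) had overlapping groups. On the other side, KARS (lysyl, 0.29, adjusted p = 0.086) and HARS (histidyl, 0.23, adjusted p = 0.188) were higher in every CTI-2 library than in any control. SARS (seryl, 0.19), LARS (leucyl, 0.16), NARS (asparaginyl, 0.14), IARS (isoleucyl, 0.06) and DARS (aspartyl, 0.04) did not pass and had overlapping groups. Without control 2, AARS, HARS and KARS passed too, with log2 fold changes of -0.30, 0.30 and 0.35 and adjusted p of 0.0388, 0.0296 and 0.0119. The median SE of the log2 fold change was 0.11 for the 20 cytosolic genes and 0.19 for all tested genes. Shares without overlap were therefore not taken at like precision. In all, 9 cytosolic genes were lower and 3 higher with no overlap between groups, which is 60.0% of 20, against 28.8% of all tested genes (15.6% lower and 13.2% higher). These counts depend on the scaling: with CPM divided by the TMM factors, a correction for library composition chosen after seeing the data, 8 cytosolic genes were lower and 5 higher with no overlap, against 13.6% lower and 15.3% higher of all tested genes. TARS then overlapped, and SARS and LARS no longer did. The median log2 fold change of all tested genes was -0.06 with library totals and -0.01 with TMM scaling.

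The median log2 fold change was -0.07 over the 20 cytosolic and -0.01 over the 15 tested mitochondrial genes, beside -0.01 over all tested genes. The largest positive values among the mitochondrial genes belonged to PARS2 and MARS2. MARS2, which encodes the mitochondrial methionyl enzyme in a gene of 1 exon, stood at 10.8, 10.7 and 11.9 CPM in the controls against 17.1, 16.2 and 15.8 CPM with CTI-2. The groups did not overlap, and the log2 fold change of 0.61 (SE 0.21, 95% interval 0.18 to 1.04) missed the threshold (edgeR adjusted p = 0.071, range 0.0592 to 0.201 over the alternatives). MARS2 rested on 28 to 54 counts per library. PARS2, which encodes the mitochondrial prolyl enzyme, had 10 to 37 counts per library, with 8.09, 4.84 and 4.68 CPM in the controls against 8.24, 12.5 and 4.53 CPM with CTI-2. Its groups overlapped, and leaving out 1 library moved its log2 fold change of 0.62 (edgeR adjusted p = 0.234) between 0.24, without CTI-2 library 2, and 0.88, without control 1.

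At the other end, VARS2, which encodes the mitochondrial valyl enzyme, stood at 11.9, 14 and 11.9 CPM in the controls against 9.83, 10.8 and 6.79 CPM with CTI-2. The groups did not overlap, and its log2 fold change was -0.41 (edgeR adjusted p = 0.302). VARS2 overlaps GTF2H4 on the same strand by 5865 bases, so its counts are uncertain. IARS2, the mitochondrial isoleucyl gene, had 62.0, 55.0 and 72.8 CPM in the controls against 36.8, 51.9 and 58.4 CPM with CTI-2. CTI-2 library 1 was again the lowest, CTI-2 library 3 lay above control 2, and the log2 fold change of -0.32 did not pass (adjusted p = 0.170). RARS2 (-0.18) and SARS2 (-0.23) also had groups that did not overlap. SARS2 shares 15493 bases with the counted gene AC011455.2 on the same strand, so its counts are uncertain. AC011455.2 had 2 to 13 counts per library. The remaining WARS2 (-0.25), EARS2 (-0.23), FARS2 (-0.16), CARS2 (-0.01), YARS2 (-0.01), TARS2 (0.00), LARS2 (0.02), HARS2 (0.04) and NARS2 (0.13) overlapped between groups, with adjusted p from 0.511 to 0.998. YARS2 shares 18161 bases with DNM1L on the opposite strand, so its counts are uncertain where reads were not counted by strand. AARS2 was too low to test, at 2 to 7 counts per library. In all, 4 of 15 mitochondrial genes (26.7%) had groups that did not overlap, 3 lower and 1 higher, a share near the 28.8% of all tested genes. With TMM-scaled CPM 2 were lower, without RARS2, and 1 higher. The median SE of the log2 fold change was 0.17 for the mitochondrial, 0.11 for the cytosolic and 0.19 for all tested genes. A missed threshold does not show that a gene stayed level.

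Summed over the genes of a set, cytosolic synthetases took 3746, 3418 and 3719 CPM in the controls against 3333, 3365 and 3558 CPM with CTI-2 (3627 ± 182 and 3419 ± 122, SD, n = 3 per group). CTI-2 library 3 was above control 2, so the groups overlapped. Mitochondrial synthetases took 521, 507 and 540.5 CPM in the controls and 459, 481 and 504 CPM with CTI-2 (523 ± 17.0 and 481 ± 22.6). These sums did not overlap on library totals, but with TMM-scaled CPM they were 499, 529 and 511 in the controls and 467, 489.6 and 515 with CTI-2, which overlapped. The mitochondrial share of the summed CPM was 12.6% ± 0.357 in controls and 12.3% ± 0.214 with CTI-2, and its ranges overlapped. The sums are dominated by the genes with most reads and are given with no test.

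Cytosolic and mitochondrial genes for the same amino acid were next set against each other within each library, as the log2 ratio of their counts, which does not depend on scaling between libraries. There were 16 such pairs with both genes tested, in which EPRS and FARS2 each appear in more than 1 pair. The ratio was lower with CTI-2 in 8 and higher in 8. Its groups overlapped in 12 of the 16 pairs. Of all tested genes 28.8% had CPM groups without overlap, and no such share was taken over ratios of other genes. For the methionyl pair MARS over MARS2 the log2 ratio was 4.65, 4.47 and 4.72 in the controls against 3.55, 3.44 and 3.68 with CTI-2. The groups were far apart relative to their spread (4.62 ± 0.129 and 3.56 ± 0.121, SD, n = 3 per group), a difference of -1.06. It was the only pair whose ratio was lower with no overlap. The ratio was higher with no overlap in 3 pairs: FARSB over FARS2 (difference 0.53), SARS over SARS2 (0.42, with SARS2 uncertain by its overlap with AC011455.2) and IARS over IARS2 (0.40). The two-sided exact permutation test gave p = 0.1 for each of these 4, the smallest that 3 against 3 libraries allow, and 0.425 after Benjamini-Hochberg adjustment over 17 comparisons (the 16 pairs and FARSB over FARSA), so this test could not pass 0.05 for any pair and says nothing on whether the pairs differ. The adjacent genes HARS and HARS2 are transcribed away from each other and overlap by 437 bases; the log2 ratio of their counts was 1.95 ± 0.189 and 2.14 ± 0.153, with overlapping groups. HARS2 also overlaps ZMAT2 on the same strand by 639 bases, and ZMAT2 was called higher (0.38, edgeR adjusted p = 0.029), so HARS2 is uncertain.

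**Figure D3:**
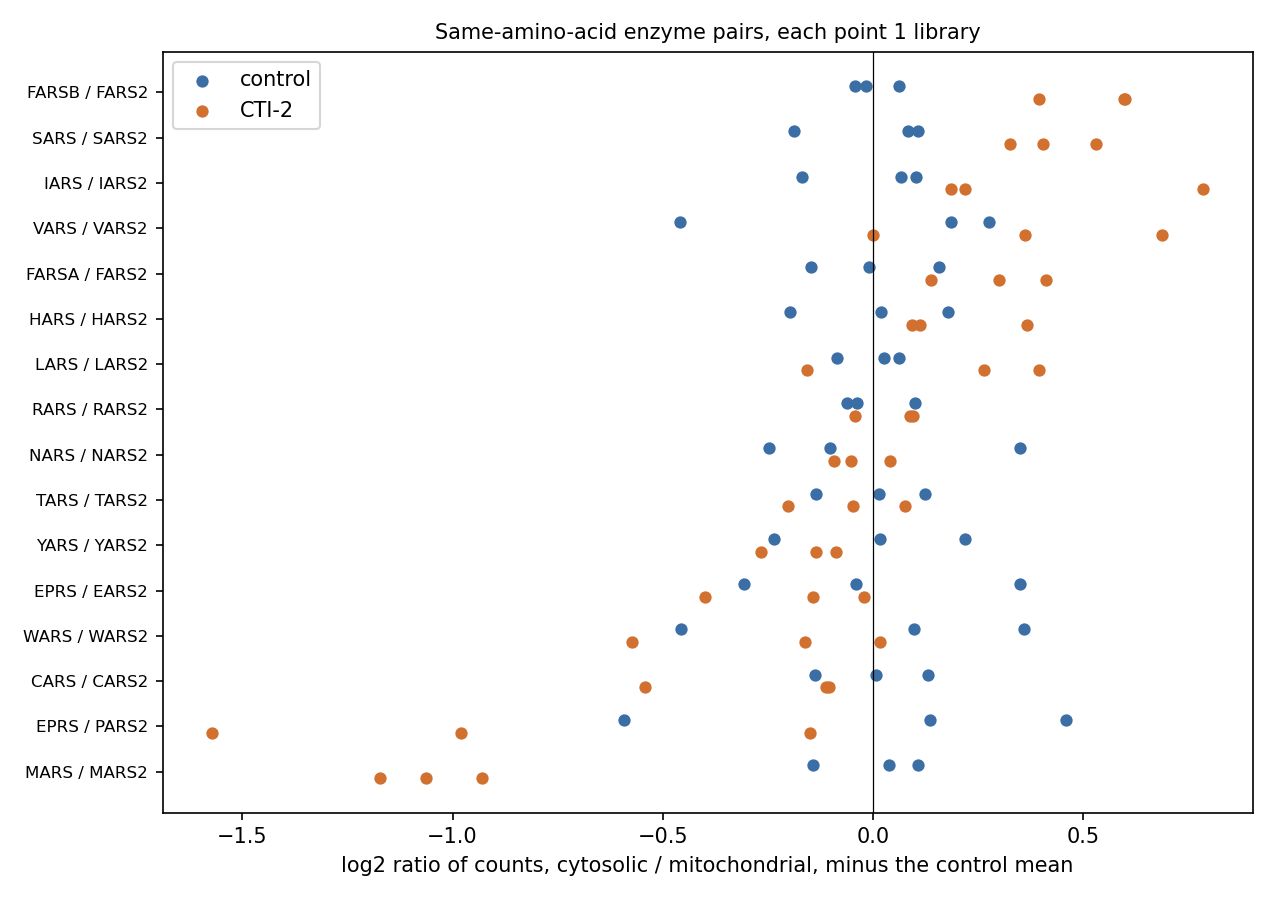
Log2 ratio of cytosolic to mitochondrial counts minus the pair's control mean (x axis) for 16 pairs of synthetase genes that serve the same amino acid, each point 1 library (3 control, 3 CTI-2). The MARS over MARS2 ratio is lower by 1.06 in the mean with CTI-2, while FARSB over FARS2, SARS over SARS2 and IARS over IARS2 are higher with no overlap. The groups of the other 12 pairs overlap.

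Synthetases fall into class I and class II by the fold of the catalytic domain, and EPRS, whose glutamyl part is of class I and prolyl part of class II, is counted here under class I. All 3 called falls were of class I, and the 1 called rise was of class II. Of 19 tested class I genes 3 were lower and 0 higher, 15 had a negative log2 fold change and the median was -0.18. Of 16 tested class II genes 0 were lower and 1 higher, 5 were negative and the median was 0.09. The called share was 15.8% of class I and 6.25% of class II, beside 8.03% of all tested genes (4.64% lower and 3.39% higher). Within the cytosolic genes the medians were -0.20 for 10 class I and 0.14 for 10 class II genes, and within the mitochondrial genes -0.18 for 9 and 0.02 for 6. The difference between classes was not tested. Against the sign of their class's median stood the class II genes GARS (-0.68), AARS (-0.24), SARS2 (-0.23), FARS2 (-0.16) and TARS (-0.05), and the class I genes MARS2 (0.61), LARS (0.16), IARS (0.06) and LARS2 (0.02).

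The 8 enzymes of the multi-synthetase complex included the 3 called falls, beside 4.64% of all tested genes called lower, and were not tested against the other synthetases. The other 5 (IARS, KARS, LARS, RARS and DARS) did not pass, and the 8 had 4 negative and 4 positive values, with a median of -0.04. Of the 12 cytosolic genes outside the complex 0 were lower and 1 higher (median -0.07). None of the 3 scaffold genes passed in edgeR: AIMP1 had a log2 fold change of 0.11, AIMP2 of 0.19 and EEF1E1 of 0.31 (adjusted p = 0.589, 0.299 and 0.085), and EEF1E1 alone had an unadjusted p under 0.05.

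The amino acid response raises transcription through a composite C/EBP-ATF element, whose core is commonly given as TGATGCAA. These letters were searched on both strands of the RefSeq promoter windows (GRCh38.p14, 250 bases before to 50 after a gene start), which exist for 16 cytosolic and 14 mitochondrial members. They occurred in 304 of 35116 windows (0.866%), and in a window of 6 cytosolic and 0 mitochondrial members. The 6 sites are shown because they mark which synthetase genes carry this core at the start; capitals mark the core, and each is read 5′ to 3′ on the strand that holds it.
AARS (chr16:70289676-70289703, plus strand): ctaacttggcTGATGCAActgcgagaaa
CARS (chr11:3057408-3057435, plus strand): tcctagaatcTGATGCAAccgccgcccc
IARS (chr9:92293693-92293720, plus strand): cgcacggaggTGATGCAAcgcgctgaaa
MARS (chr12:57488054-57488081, minus strand): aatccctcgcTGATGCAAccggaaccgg
NARS (chr18:57621805-57621832, minus strand): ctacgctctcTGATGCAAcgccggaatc
TARS (chr5:33440957-33440984, minus strand): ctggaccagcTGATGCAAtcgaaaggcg

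Counted along the gene, the first edge of the core lies 187 bases before the start in AARS, 13 in IARS, 4 in MARS and 2 in CARS. It lies 2 bases after the start in TARS and 14 in NARS. The core has 8 bases, so in MARS and CARS it crosses the start. The core reads on the strand opposite to transcription in all of them but NARS. Of the 6 genes 1, MARS, was called lower; the others had log2 fold changes of -0.25 (CARS), -0.24 (AARS), -0.05 (TARS), 0.06 (IARS) and 0.14 (NARS), and the median was -0.15. Of the 10 cytosolic genes with a window and no match 2 were lower (EPRS and QARS) and 1 higher (FARSB), with a median of 0.01. Over all tested genes 4.64% were called lower and 3.39% higher. A match is a description of letters, not of binding, and the genes with and without it were not compared by a test.

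The 12 cytosolic synthetases commonly described as ATF4 targets included 2 that fell, MARS and EPRS, and 0 that rose, with 8 negative values and a median of -0.20, beside 4.64% of all tested genes called lower and 3.39% higher. The other 8 cytosolic genes had 1 lower, QARS, and 1 higher, FARSB (median 0.09). Of 27 tested genes of the wider amino acid response 8 were lower and 1, DDIT3, higher (33.3% called, beside 8.03% of all tested genes). The median was -0.31, beside -0.01 over all tested genes. The median SE was 0.13 for this list and 0.19 for all tested genes, so the called shares were not taken at like precision. The list was written with earlier results of these data known. NUPR1, a stress-induced chromatin regulator gene, stood at 141, 147 and 130 CPM in the controls against 76.7, 70.8 and 68.4 CPM with CTI-2 (log2 fold change -0.90, edgeR adjusted p = 3.5e-06). PCK2, which encodes mitochondrial phosphoenolpyruvate carboxykinase, fell by 0.83, the cystine transporter gene SLC7A11 by 1.25 and the serine synthesis gene PHGDH by 0.55 (adjusted p = 0.00024, 0.00093 and 0.0011). ATF4 itself stood at 428 ± 7.18 and 352 ± 1.91 CPM (log2 fold change -0.23, adjusted p = 0.173). Of 13 tested genes of the eIF2 kinases and their partners, EIF2B1, an eIF2B subunit gene, alone passed (0.47, adjusted p = 0.0054). EIF2AK4, which encodes the uncharged-tRNA sensor GCN2, had -0.13 (adjusted p = 0.766). The other called falls of the wider amino acid response were ASNS (-0.55), TRIB3 (-0.46), SLC1A5 (-0.41) and SLC7A5 (-0.36). MARS, EPRS and QARS fell by less than NUPR1, PCK2 or SLC7A11 did on the same scale. Their falls were near those of TRIB3, SLC1A5 and SLC7A5, and these differences were not tested.

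Across the 35 tested synthetases the log2 fold change had r = -0.16 (Spearman's rho = -0.21) with annotated transcript length and r = -0.13 (rho = -0.16) with GC content. Over 9218 tested genes the values were r = -0.13 (rho = -0.185) and r = -0.15 (rho = -0.14). These are correlations across genes that share the same 6 libraries, and genes are not independent replicates. MARS, EPRS, QARS and FARSB all passed with each library's trend with length removed, and MARS, EPRS and QARS with the GC trend removed.

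**Figure D4:**
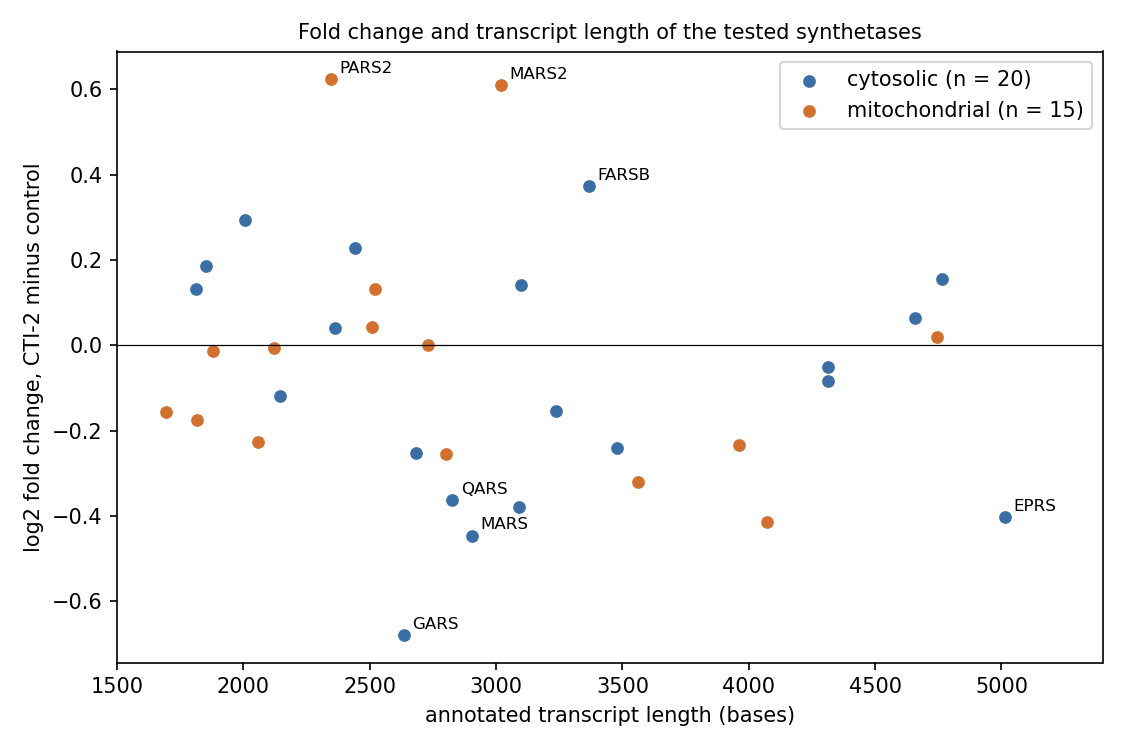
Log2 fold change (CTI-2 minus control, y axis) against the annotated length of the principal transcript in bases (x axis) for 20 cytosolic and 15 mitochondrial synthetase genes, each point 1 gene. Over the 35 genes r was -0.16 and Spearman's rho -0.21. With each library's trend with length removed, EPRS (5014 bases) went from -0.40 to -0.34 and QARS (2827 bases) stayed at -0.36.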

How the data were processed

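Per the labels' protocols, RNA was taken with Trizol and libraries were made with a nanopore cDNA-PCR kit; the submitters' processing notes name minimap2, and no version, build, annotation, counter or use of strand is stated there. Raw read counts per gene and a CPM table were deposited by the authors, in which each count is divided by its library's total of counts. The deposited gene span, in bases, is given per gene; it equals the GENCODE 29 span for 28 of the 36 synthetases, and gene spans are printed only for those. Overlaps between genes are those of GENCODE 29, also for MARS, VARS2, KARS, CARS2, YARS and YARS2, whose spans differ from the deposited ones. They were sought only among the 14408 counted genes with an Ensembl identifier. On the opposite strand HARS also overlaps WDR55, KARS TERF2IP, WARS WDR25, YARS S100PBP, CARS2 ING1, EARS2 UBFD1 and SARS2 MRPS12. These overlaps are of 221 to 1387 bases, and reads in them cannot be told apart if strand was not used. Promoter coordinates are RefSeq's. The filterByExpr function of edgeR 4.0.16 (R 4.3.3) left 9848 genes, whose counts were TMM-scaled and put through its robust quasi-likelihood test, with Benjamini-Hochberg adjustment over all tested genes at 0.05. Each SE is the log2 fold change over the root of its F value. Alternatives used DESeq2 1.42.0, limma 3.58.1, other scalings and filters, the replicate block, leaving out each library and, chosen after seeing the data, offsets that take out a lowess curve (span 0.3) on length or GC content of the principal transcript, per library, and CPM divided by the TMM factors.

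The members and gene lists were chosen with earlier results of these data known. The text names all 36 members, with library values for those called and for the 6 others of largest absolute log2 fold change, and of each other list up to 4 called genes or, with none called, the 2 of highest CPM. AIMP1, ATF4, DDIT3, EIF2AK4, ASNS, TRIB3, SLC1A5, SLC7A5, ZMAT2, AC011455.2, GTPBP3 and the marker genes were named after they were seen. So were the genes given as overlapping a member on the opposite strand. In a simulation of this comparison (9917 genes in the fit) the test recovered 41.8% of genes changed 1.5-fold, 83.6% at 2-fold and 95.5% at 4-fold. Of its 154 calls 7 were false. Every simulated gene had the same coefficient of biological variation, 0.1, so these shares do not hold for genes that vary more. MARS, EPRS, QARS and FARSB changed by less than the smallest fold simulated. Libraries of a group differed from each other by more than sampling noise, with chi-square over its degrees of freedom from 1.78 to 6.97. Counts carry no molecular identifiers, so floors cover counting error only.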

Additional observations from a re-analysis of the deposited data

How the results depend on the processing

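MARS, EPRS, QARS and FARSB kept their directions under all 18 alternatives, and the mitochondrial synthetases gave 0 calls in either direction under each. With DESeq2 the 0 calls leave out NARS2, PARS2 and WARS2, which had no adjusted p. Leaving out 1 library gave 0 (without CTI-2 library 2) to 4 cytosolic genes called lower and 0 to 3 called higher, and 400 to 1610 calls over all genes. All genes called numbered 504 with DESeq2 and 306 at an adjusted p of 0.01, at which 1 cytosolic gene (MARS) was lower and 0 higher; 0 were higher with the GC trend removed. Shares of lower calls over all genes were 57.8% in the reported fit, 46.2% with DESeq2, 40.6% without control 2 and 66.7% to 71.8% without any 1 of the other libraries. With TMM-scaled CPM 5 cytosolic genes, instead of 3, were higher with no overlap of groups, and the difference in summed mitochondrial CPM (CTI-2 minus control) was -22.6 instead of -41.4.

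Same-numbered libraries did not deviate together (r = -0.05, 0.01 and -0.12), and the labels name no pairing. With 3 libraries per group such values cannot exclude one. With the replicate block the number of calls over all genes went from 791 to 942, EPRS, FARSB, MARS and QARS passed, and GARS passed as well (log2 fold change -0.74, adjusted p = 0.00052).

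The sign reversed only for genes that were not called. With library totals the log2 fold change was -0.0045 for DARS, -0.0079 for HARS2, -0.0282 for LARS2 and -0.0484 for TARS2. Limma on log2(CPM + 1) and on log2(CPM + 0.5) gave -0.0075 and -0.0076 for HARS2, -0.0586 and -0.06 for LARS2, and -0.0433 and -0.0437 for TARS2. With at least 20 counts in 3 libraries LARS2 had -0.0013 and TARS2 -0.0215. DESeq2 gave 0.007 for CARS2 and 0.0175 for YARS2. TARS2 had -0.0016 with DESeq2's size factors, -0.0038 with limma-voom and -0.0058 with the length trend removed. YARS2 had 0.0033 with the replicate block. With the GC trend removed VARS had 0.0495, CARS2 0.0106 and LARS2 -0.0029. Without 1 library the range was -0.09 to 0.1537 for DARS, -0.1861 to 0.0096 for VARS, -0.1177 to 0.0707 for CARS2, -0.0046 to 0.0897 for HARS2, -0.1821 to 0.1291 for LARS2, -0.0278 to 0.2903 for NARS2, -0.0862 to 0.0794 for TARS2, -0.4114 to 0.1458 for WARS2 and -0.0769 to 0.1141 for YARS2. The cause of these changes was not tested. WARS2 was not tested with at least 20 counts in 3 libraries. Among the tested genes EARS2, MARS2, NARS2, PARS2, VARS2 and WARS2 had under 60 counts in every library.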

Other observations

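Partners of mitochondrial tRNA charging and translation were also measured. Of 10 tested mitochondrial translation factor genes 2 rose and 0 fell (median 0.17), beside 3.39% of all tested genes called higher and 4.64% lower, shares that bear on each list here. GFM1, which encodes a mitochondrial elongation factor, stood at 95.9, 97.0 and 112 CPM in controls 1 to 3 and at 122, 129 and 139 CPM in CTI-2 libraries 1 to 3 (log2 fold change 0.41, edgeR adjusted p = 0.020), and MTIF3, a mitochondrial initiation factor gene, rose by 0.42 (adjusted p = 0.040). None of 9 tested mitochondrial tRNA charging and modification genes passed in edgeR, with 5 negative and 4 positive values and a median of -0.05. TRNT1, which encodes the enzyme that adds the CCA end, had 0.22 (edgeR adjusted p = 0.213). GATB, a subunit gene of the enzyme that makes glutaminyl-tRNA in mitochondria, had 0.33 (adjusted p = 0.113). GTPBP3 had -0.87 (adjusted p = 0.137) on 5 to 19 counts per library. Of the 9 genes 2, GATB and GTPBP3, had an unadjusted p under 0.05. Of 10 tested tRNA maturation and editing genes 1 rose, RPP30, a subunit gene of ribonuclease P (0.47, adjusted p = 0.013), and 1 fell, ELAC2, which encodes the ribonuclease that trims the other end of precursor tRNA (-0.54, adjusted p = 0.024).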
